A study of Mus musculus with 9 samples.

Results

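The lymphocytes described here are the cells that the authors' deposited annotation labels T1 in a single-cell survey of the mouse thyroid. They were taken by that label alone, and they numbered 409 of 10186 cells (4.02%). Thyroids of male C57BL/6 mice were dissociated in pools of 6 mice and profiled by droplet-based 3' RNA sequencing, in which each captured molecule carries a unique molecular identifier (UMI) and is counted once. Every mouse received 1 intraperitoneal injection and was examined after 7 days. The 3 RW pools received an isotype control antibody against ragweed at 40 mg/kg. The 3 aJ1aJ2 pools received antibodies against the Notch ligands Jag1 and Jag2 at 20 mg/kg each. The 3 aN1aN2 pools received antibodies against the receptors Notch1 at 5 mg/kg and Notch2 at 10 mg/kg. The labels give the mice's age as 10 to 12 weeks in one place and 10 to 14 weeks in another. RW 3 and aJ1aJ2 1 have no replicate number in their titles and are so named here. The aN1aN2 samples also carry a run of internal sample numbers that no other sample shares, so receptor blockade and that sample series cannot be told apart.

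T lymphocytes recognise antigen through a receptor of either alpha and beta or gamma and delta chains, which signals through the CD3 proteins. Natural killer (NK) cells and innate lymphoid cells lack that receptor and respond to cytokines and to ligands of their activating and inhibitory receptors. Notch1 commits thymic progenitors to the T lineage, and Notch signalling also takes part in the function of mature lymphocytes, where cleavage frees an intracellular domain that acts with the DNA-binding protein Rbpj. Tissues hold resident lymphocytes that stay in place as well as naive cells that circulate through blood and lymphoid organs.

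Levels are given as counts per 1000000 UMIs (CPM) over the summed T1 cells of a sample. The T1 cells held 2034964 UMIs, with a median of 4214 UMIs and 1480 genes per cell. Single T1 cells ranged from 600 to 52554 UMIs, and 9 exceeded 3 times the median. Summed over T1 cells, the libraries ranged from 28162 UMIs (aN1aN2 2) to 898731 (aJ1aJ2 3). None of the T1 barcodes occurred in a second library. RW 2 and aJ1aJ2 3 stood apart from the other libraries: they held 253 of the 409 T1 cells and 557 of the 624 cells of another label, T2. Recombination genes of immature thymocytes marked T2, with Rag1 in 85.4% and Dntt in 85.3% of its cells. No doublet caller was run, and 22 T1 cells held at least 3 UMIs of macrophage, B cell, thymocyte recombination or endothelial genes.

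T cell genes defined most of the label. At least 1 UMI of Cd3d, Cd3e or Cd3g, the CD3 chains, was found in 366 of 409 cells (89.5%, 95% exact interval 86.1 to 92.3%). Trbc1 or Trbc2, the constant segments of the beta chain, was found in 92.9%. These were also found in 63 of the 69 cells with 3 or more UMIs of the delta chain segment Trdc. Their detection therefore did not separate alpha beta from gamma delta T cells. Trac, the constant segment of the alpha chain, was found in only 30 T1 cells, and in 4.65% of T2 cells, so it gave no usable count of alpha beta T cells. Trbc1 and Trbc2 are near-identical copies, and reads can be assigned to either. Ptprc (CD45), the leukocyte surface phosphatase, was detected in 90.2% of T1 cells, Cd2, an adhesion receptor of T and NK cells, in 60.4%, and Il7r, the interleukin-7 receptor of naive T and innate lymphoid cells, in 52.6%. Nkg7, a granule protein of cytotoxic cells, was detected in 33.5%, and Ccl5, a chemokine of cytotoxic and memory cells, in 14.9% (61 cells).

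Free RNA can give UMIs in droplets of cells that do not express a gene. Tg, the thyroid hormone precursor made by thyrocytes, was detected in 83.4% of T1 cells and in 73.5% of cells labelled M, whose C1qa and Csf1r detection marks macrophages. The lymphocyte genes were more restricted: Cd3d was detected in 0.265% of M cells (median 1192 UMIs) and 0.624% of cells labelled EC1 (median 3994 UMIs), which hold the endothelial gene Pecam1 in 97.1%, and Trdc in none of the M cells. With T1 cells thinned to 1000 UMIs, which left 406 of them, Cd3g was still detected in 66.5%, Nkg7 in 20.9% and Trdc in 16.5%. Macrophage genes were almost absent from T1. Csf1r had no UMI, which allows a share of cells with a UMI of up to 0.733%, and C1qa had UMIs in 2 cells. That limit, like the intervals, covers counting error only.

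Subsets within T1 were read from marker genes. Trdc, the constant segment of the delta chain (chromosome 14, 54142851 to 54148868, GRCm38), was found in 90 cells (22.0%), with 3 or more UMIs in 69 of them. Cd163l1, a scavenger receptor of gamma delta T cells, was found together with Trdc in 52 cells. Cd4 was found in 88 cells, Cd8a or Cd8b1 in 108, and both in 20. Ncr1, the activating receptor NKp46 of NK cells, was found in 12 cells, 7 of them without any CD3 UMI. Il1rl1, the interleukin-33 receptor of group 2 innate lymphoid cells, was found in 27 cells, 16 of them without CD3. Foxp3, the regulator of regulatory T cells, was found in 4 cells. At these depths a cell without a UMI of a gene cannot be taken as a cell that does not express it.

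Clustering of the T1 cells alone gave 9 sub-clusters, which are described without tests because the same genes formed them. Sub-cluster 4 (59 cells) was gamma delta T-like, and its leading genes included Cd163l1 and Trdc (both in 88.1% of its cells), Trdv4, Blk and Tcrg-C1. Il7r was found in 98.3% of these cells, Cxcr6, a chemokine receptor of resident lymphocytes, in 94.9%, and the interleukin-1 receptor Il1r1 in 55.9%. All 9 T1 cells with Il17a, an inflammatory cytokine, belonged here. Neither Cd4 nor Cd28 had a UMI in sub-cluster 4. Trbc2, however, was found in 89.8% of its cells, and in 80.65% of sub-cluster 6.

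Sub-cluster 7 (21 cells) was NK-like, with 9 genes of the NK list among its 10 leading genes, among them Gzma, Fcer1g, Tyrobp, Klre1, Ncr1 and Klrb1c. Klrd1, a receptor chain of NK and cytotoxic T cells, and Nkg7 were detected in all 21 cells, and Cd3d in 52.4%, so the sub-cluster held cells with and without detected CD3. Sub-cluster 3 (62 cells) had Nkg7 in 90.3%, Ccl5 and Klrk1 among its leading genes, Itga1, an integrin of resident lymphocytes, in 40.3%, and Cd3d in 93.5%; it remained unnamed. The Klra genes belong to a family of similar sequences, and their separate counts are uncertain.

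Sub-cluster 6 (31 cells) had Cd3d and Cd3e in 3.23% of its cells each and Cd3g in 35.5%, with Il1rl1 in 77.4%, Lmo4 in 90.3%, Gata3, the regulator of type 2 lymphocytes, in 58.1% and Il7r in 87.1%. It was left unnamed because 5 mast cell genes stood among its 10 leading genes. Those genes came from 1 RW 2 cell: 810 of the 835 UMIs of Mcpt2, Mcpt4, Tpsb2, Cma1 and Cpa3 in all of T1 were in that cell. Without that cell and the cell with the most Calca UMIs (178 of 371 in T1, in aN1aN2 1), no mast cell gene was among the leading 10. Those then held Calca and Il1rl1 of the group 2 innate lymphoid list. They also held Ccl6, which ranked first, and Ccl3, Ifitm1 and Ccl9, each found in only 2 cells of the sub-cluster. Sub-cluster 8 (9 cells) was B cell-like, with Cd79a, Ms4a1 and Igkc in all 9 cells and no Cd3d or Cd3e, and the antigen-presentation genes Cd74, H2-Aa, H2-Ab1 and H2-Eb1 among its leading genes.

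Sub-cluster 1 (93 cells) was naive T-like, led by S1pr1, the receptor that guides exit from lymphoid organs, Ccr7, the lymph node homing receptor, and Klf2, their regulator, found in 62.4%, 53.8% and 50.5% of its cells. Sub-cluster 2 (73 cells) was led by Itm2a (80.8%), Ccr9, a thymus and gut homing receptor (75.3%), Hivep3, Sox4 and the chromatin organiser Satb1 (91.8%), and Cd3d was found in each of its cells. Of the 73, 69 came from RW 2 and aJ1aJ2 3. Sub-cluster 5 (54 cells) had Cd8b1 in 75.9% and Cd8a in 74.1%, and its division genes Top2a and Mki67 came from 8 and 5 cells. Sub-cluster 9 (7 cells, 6 of them in aJ1aJ2 3) was led by Dntt and also held Arpp21, Plac8 and Myb, with Rag1 in 57.1%. Sub-clusters 2, 5 and 9 were left unnamed.

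**Figure D1:**
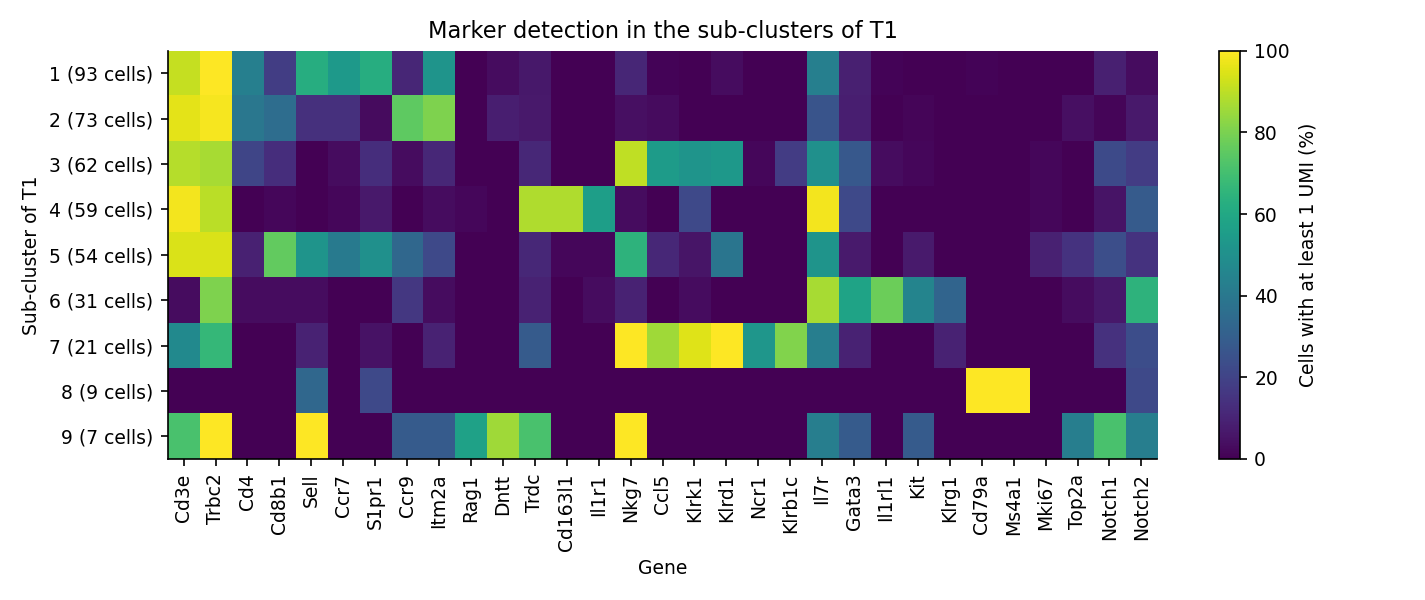
Share of cells with at least 1 UMI (colour, percent) of 31 genes (columns) in the 9 sub-clusters of T1 (rows, with cell numbers). Trdc and Cd163l1 were each detected in 88.1% of sub-cluster 4, Klrd1 and Nkg7 in all 21 cells of sub-cluster 7, and Cd3e in no cell of sub-cluster 8.

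The genes highest in T1 relative to any other label, a description with no test, included genes of single sub-clusters and genes spread over several. Ccr7 reached 114 CPM in T1 against 5.69 in the next label, Nkg7 405 against 45.5, and Ccl5 737 against 96.8. Izumo1r (64.4 against 1.29), the folate receptor 4 of regulatory and anergic T cells, Cd7 (140 against 22.8) and Ms4a4b (555 against 114) were spread over 16.6%, 27.6% and 53.1% of T1 cells. By contrast Mcpt2 (159 CPM) and Tpsb2 (88.0), mast cell proteases that stood at the top of the ranking, were each found in 1 cell.

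The share of T1 among all cells varied widely within RW and aJ1aJ2. It was 2.40%, 6.45% and 2.66% in RW 1, 2 and 3. It was 1.89%, 9.31% and 2.88% in aJ1aJ2 1, 3 and 4, and 1.72%, 1.13% and 2.04% in aN1aN2 1, 2 and 3. The high samples were RW 2 and aJ1aJ2 3, the ones that held most T2 cells (272 and 285, against 0 to 39 in each of the other samples). RW and aJ1aJ2 overlapped, whereas each aN1aN2 share was below each RW share. With Eryth1 and Eryth2 cells left out of the denominator that separation ended (difference -2.54 points, exact permutation test, p = 0.2).

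The mean share was 4.69% ± 4.03 (SD, n = 3) in aJ1aJ2 and 3.84% ± 2.27 (SD, n = 3) in RW, a difference of 0.85 percentage points (exact two-sided permutation test, p = 0.8). Without RW 2 and aJ1aJ2 3 the difference was -0.15 points. In aN1aN2 the mean share was 1.63% ± 0.46 (SD, n = 3), 2.21 points below RW (exact two-sided permutation test, p = 0.1, the smallest value that 3 against 3 samples allow). Without RW 2 that difference was -0.91 points, and without sub-clusters 1, 2, 5 and 9 it was -0.53 points (exact permutation test, p = 0.3). Among T1 and M cells alone the T1 share was 26.9 points higher in aN1aN2, where only 3 to 10 M cells per sample were found against 53 to 77 in RW. The shares are of the recovered cells, so numbers per thyroid cannot be read from them.

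**Figure D2:**
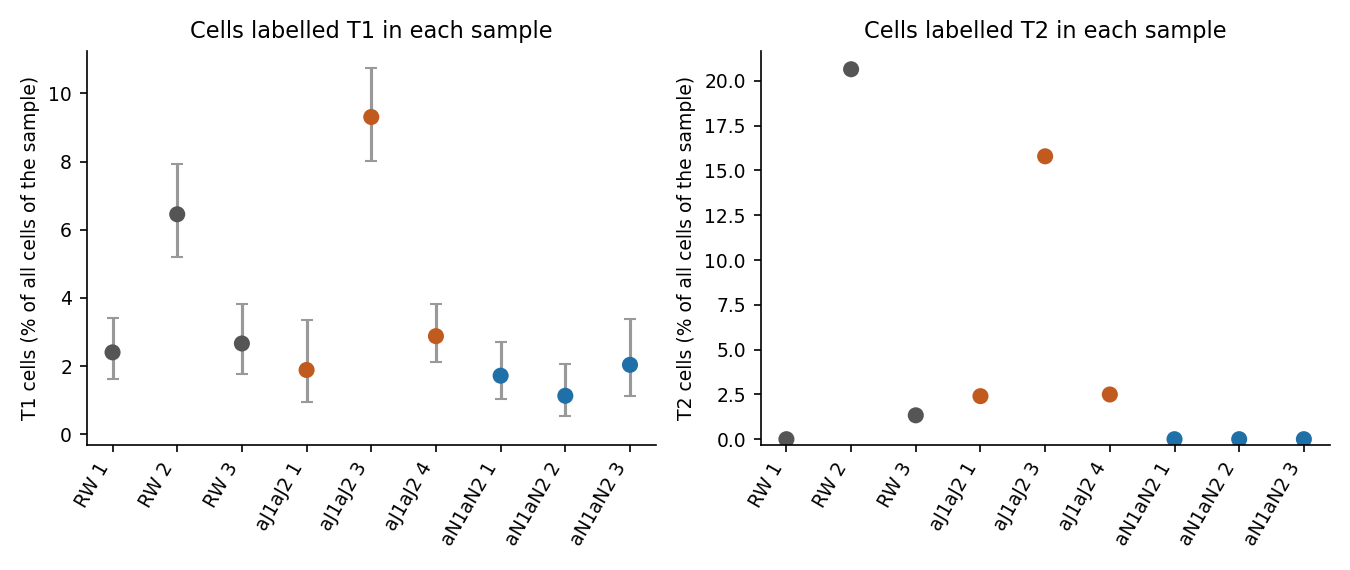
Percent of all cells of each sample labelled T1 (left, bars are 95% exact binomial intervals for counting error) and T2 (right), for the 9 samples on the x axis coloured by group (grey RW, orange aJ1aJ2, blue aN1aN2). RW 2 and aJ1aJ2 3 are highest for both labels, at 6.45% and 9.31% for T1.

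The spread of T1 between samples lay mostly in sub-clusters 1, 2, 5 and 9, a grouping made after their values were seen. Together they held 4 of 30, 51 of 85 and 13 of 28 T1 cells in RW 1, 2 and 3. They held 5 of 11, 128 of 168 and 23 of 45 in aJ1aJ2 1, 3 and 4, and 1 of 18, 0 of 10 and 2 of 14 in aN1aN2 1, 2 and 3. The aN1aN2 samples were low, with RW 1 at 13.3% beside aN1aN2 3 at 14.3%. The other sub-clusters varied less as a share of all cells: 2.08%, 2.58% and 1.43% in RW, 1.03%, 2.22% and 1.41% in aJ1aJ2, and 1.62%, 1.13% and 1.75% in aN1aN2, with all 3 groups overlapping.

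Gamma delta T-like cells were among the most even. Sub-cluster 4 took 0.481%, 0.759% and 0.571% of all cells in RW 1, 2 and 3. It took 0.172%, 0.776% and 0.448% in aJ1aJ2 1, 3 and 4, and 0.573%, 0.565% and 0.582% in aN1aN2 1, 2 and 3. These ranges overlapped. As a share of T1 alone, sub-cluster 4 took 6 of 18, 5 of 10 and 4 of 14 cells in aN1aN2, at least 28.6%, and at most 21.4% in RW, without overlap.

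**Figure D3:**
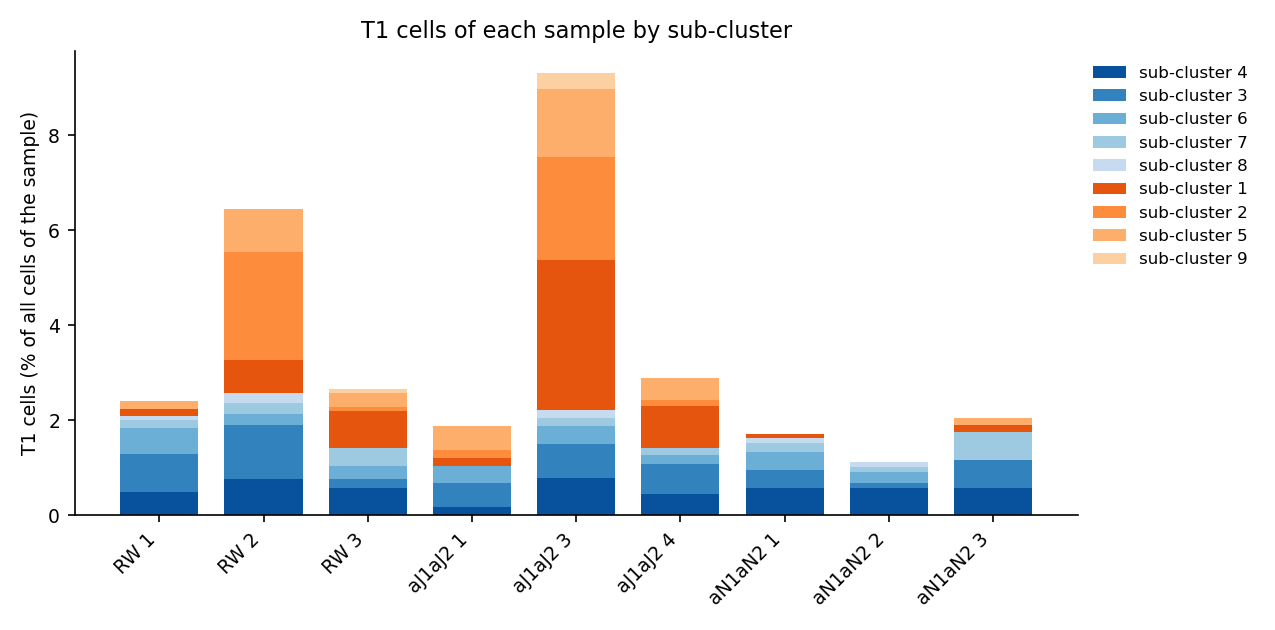
T1 cells of each sample as percent of all its cells (bar height), divided by sub-cluster; orange shades are sub-clusters 1, 2, 5 and 9 and blue shades the others. The orange part ranges from 0.0% (aN1aN2 2) to 7.09% (aJ1aJ2 3), and the blue part from 1.03% to 2.58%.

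To ask whether blockade of Jag1 and Jag2 changed the lymphocytes' RNA, UMIs were summed over the T1 cells of each sample with at least 20 such cells, which were the 3 RW samples and aJ1aJ2 3 and 4. None of the 2933 genes tested passed an adjusted p of 0.05 (edgeR quasi-likelihood test with Benjamini-Hochberg adjustment, 0.0% called), 104 genes (3.55%) had an unadjusted p under 0.05, and DESeq2 called 0, with 47 unadjusted. Leaving out aJ1aJ2 4 gave 1 call, Dntt, the enzyme that adds bases at receptor gene joints. That fit sets aJ1aJ2 3 alone against RW and assumes that it varies as the RW samples do. The genes with the smallest p whose sample values did not overlap are given below as values that did not pass; among all genes tested, 6.24% lay entirely above RW and 13.3% entirely below. The adjusted p of each was 0.9986 in edgeR.

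Genes of naive, circulating T cells were at the high end. Ccr7 (chromosome 11, 99144196 to 99155077) stood at 25.8, 20.4 and 48.9 CPM in RW 1, 2 and 3, against 212 in aJ1aJ2 3 and 81.2 in aJ1aJ2 4, a log2 fold change of 2.48 ± 0.50 (SE). Both tested aJ1aJ2 samples were above RW, but aJ1aJ2 1, whose 11 T1 cells kept it out of the test, stood at 27.6 and within the RW range. S1pr1 (chromosome 3, 115710433 to 115715072) stood at 34.3, 35.7 and 92.3 in RW and at 132 and 148 in aJ1aJ2 3 and 4 (log2 1.49 ± 0.41), with aJ1aJ2 1 at 96.8. For S1pr1 all 3 aJ1aJ2 samples were above all RW samples. All 9 genes of the naive list were above 0, with a median log2 fold change of 0.65 against -0.01 over all genes tested, and none was called. These samples also differed in make-up: sub-cluster 1, whose leading genes were S1pr1 and Ccr7, was 6.67%, 10.6% and 28.6% of T1 in RW and 33.9% and 31.1% in aJ1aJ2 3 and 4. In such sums, fewer cells of a type and less RNA per cell cannot be told apart. With sub-clusters 1, 2, 5 and 9 left out, Ccr7 was at 0 in each RW sample and in aJ1aJ2 1 and at 14.9 and 19.9 in aJ1aJ2 3 and 4, and no gene was called. Within those sub-clusters Ccr7 stood at 251, 37.6 and 79.5 in RW and at 43.7, 269.8 and 138 in aJ1aJ2 1, 3 and 4, on 4 to 128 cells, and the groups overlapped. The S1pr1 levels of RW and aJ1aJ2 also overlapped both within and without them.

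The genes at the low end belonged to no single list. Gzmb, the killing protease granzyme B, stood at 34.3, 109 and 157 CPM in RW and at 13.4 and 33.4 in aJ1aJ2 3 and 4 (log2 -2.35 ± 0.63). It had no UMI in aJ1aJ2 1, so the aJ1aJ2 samples lay below RW, by a narrow margin at RW 1, on 96 UMIs in 20 cells in all. Without sub-clusters 1, 2, 5 and 9 that separation ended, with RW 1 at 38.3 and aJ1aJ2 3 and 4 at 44.6 and 69.6. For comparison, Nkg7 had a log2 fold change of -0.08 ± 0.31 and Ccl5 one of 0.18 ± 0.56, both with overlapping groups. Blk, a kinase of gamma delta T and B cells, stood at 112, 84.0 and 76.0 in RW and at 25.6 and 47.8 in aJ1aJ2 3 and 4 (log2 -1.32 ± 0.42), with aJ1aJ2 1 at 27.6. Klrk1, the NKG2D receptor, was also lower in both (log2 -1.13 ± 0.37). Cpa3 had the largest negative value (log2 -4.31 ± 1.09), and 102 of its 125 UMIs were in 1 RW 2 cell. Among housekeeping genes, Dnaja1 and Ubb, of protein folding and ubiquitin, were lower (log2 -0.95 ± 0.25 and -0.54 ± 0.16), and the ribosomal protein genes Rpl23, Rps18 and Rps3 were higher by 0.41 to 0.46; ribosomal genes have near-identical copies, so their counts are uncertain.

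No gene of the lymphocyte lists was called. The T cell receptor complex list had 12 of 14 tested genes above 0 and a median of 0.15, with Cd3d at 0.38 ± 0.27. In the gamma delta list 6 of 8 were below 0, with a median of -0.38 and Trdc at -0.16 ± 0.23. The NK list had 5 of 7 below 0 and a median of -0.48. Of the tissue residence list 5 of 6 were below 0 with a median of -0.79. Cxcr6 stood at 687, 262 and 364 CPM in RW and at 131 and 210 in aJ1aJ2 3 and 4 (log2 -1.26 ± 0.44), with aJ1aJ2 1 at 194. Without sub-clusters 1, 2, 5 and 9 it stood at 756, 567 and 916 in RW and at 490, 545 and 408 in aJ1aJ2 1, 3 and 4, still without overlap. Within sub-cluster 4, and within sub-clusters 1, 2, 5 and 9 together, the Cxcr6 levels of the groups overlapped. Ccr2, an inflammatory homing receptor, was at -1.43 ± 0.54. Immediate early and heat shock genes, which enzymatic dissociation is known to induce, had 8 of 8 below 0 and a median of -0.66, Hspa8 being the one with an unadjusted p under 0.05. Interferon-stimulated genes had 3 of 4 below 0 and a median of -0.21. What part the make-up of the samples or their dissociation had in these values was not tested.

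**Figure D4:**
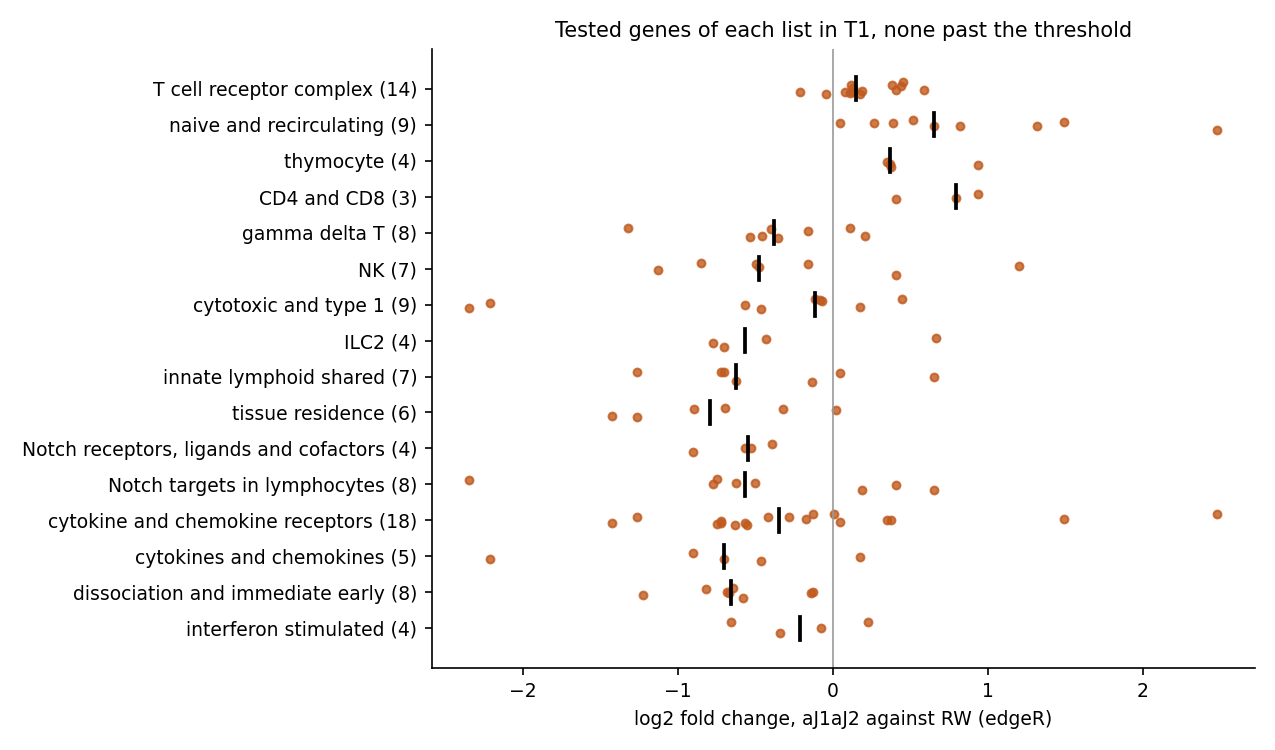
Log2 fold change of aJ1aJ2 against RW (x axis, edgeR) for each tested gene (points) of 16 lists (rows, with the number tested), with the list median as a bar; vertical scatter has no meaning. The median is 0.65 in the naive list and -0.79 in the tissue residence list, and none of the genes shown passed the threshold.

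Transcripts of the Notch pathway were sparse in T1. Notch1 was found in 49 cells (12.0%) and Notch2 in 74 (18.1%), and Notch4, Jag2, Dll1 and Dll4 had no UMI in 409 cells, which allows up to 0.733% of cells with one. Notch2 was detected in 64.5% of sub-cluster 6 and 28.8% of the gamma delta T-like cells, against 3.23% of the naive T-like cells. Notch1 was detected in 5 of the 7 cells of sub-cluster 9, in 24.1% of sub-cluster 5 and in 22.6% of sub-cluster 3. Depth differed between them: the median was 11232 UMIs in sub-cluster 9, 6875 in sub-cluster 5 and 4039 in sub-cluster 3, and the Notch1 level was 123.5 CPM, 32.7 CPM and 54.8 CPM. Hes1, a direct target of Notch, was found in 20 cells, 11 of them in sub-cluster 6 and 5 in sub-cluster 9. The ligand Jag1 was found in 21 cells, 10 of them in sub-cluster 4 and 8 in sub-cluster 6. In EC1 cells of the same libraries Notch1 was detected in 62.6%.

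Levels of both targeted receptors were low. Notch1 stood at 34.3, 22.9 and 27.2 CPM in RW 1, 2 and 3. It stood at 55.3, 32.3 and 28.7 in aJ1aJ2 1, 3 and 4, and at 15.02, 35.5 and 45.1 in aN1aN2 1, 2 and 3. Notch2 stood at 77.2, 35.7 and 81.4 in RW, 55.3, 18.9 and 52.5 in aJ1aJ2, and 165, 178 and 75.3 in aN1aN2. The groups overlapped for both receptors; the antibodies act on protein, so RNA is no check of the blockade. In the test of aJ1aJ2 against RW, 4 of 16 pathway genes had enough counts (Notch2, Rbpj, Psen2 and Adam10), all below 0 with a median of -0.55 and none called. Of 20 listed Notch targets 8 could be tested, with 3 above 0, 5 below and a median of -0.56.

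No aN1aN2 sample reached 20 T1 cells (18, 10 and 14), so receptor blockade had no test under the limit set for these data. A fit over all 9 samples, with at least 10 T1 cells each, was added after the cell numbers were known. It called 10 of 1786 genes (0.56%), 6 higher (0.336%) and 4 lower (0.224%) in aN1aN2 than in RW, and 239 genes (13.4%) had an unadjusted p under 0.05. It shares its RW samples with the comparison above, and a minimum of 10 counts in all in place of the filter on low counts gave 16 higher and 56 lower. The 10 calls became 15 without RW 1, 2 without RW 2, 4 without RW 3, 1 without aN1aN2 1 and 2 without aN1aN2 2. Over all genes tested, 10.6% lay entirely above RW and 7.05% entirely below. Among 4465 genes with at least 50 UMIs, 5.96% lay above all 6 samples of the other groups and 3.38% below them.

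Trdc and Il7r were among the genes that rose. Trdc stood at 798, 616 and 613 CPM in RW 1, 2 and 3, at 359, 501 and 630 in aJ1aJ2 1, 3 and 4, and at 2719, 1953 and 1490 in aN1aN2 1, 2 and 3. The aN1aN2 samples were above all others (log2 1.53 ± 0.27, adjusted p = 0.0231, edgeR). Il7r (chromosome 15, 9505788 to 9530176) stood at 635, 413 and 326 in RW, at 359, 346 and 535 in aJ1aJ2 and at 1172, 1775 and 1189 in aN1aN2, again without overlap (log2 1.497 ± 0.30, adjusted p = 0.0347, edgeR). Among the other 7 tested genes of the gamma delta list 6 were above 0, and none was called; Blk was at 1.29 ± 0.41 and Tcrg-C1 at 0.88 ± 0.30, and the list median was 0.75 against -0.03 over all genes tested. The naive list had 6 of 7 tested genes below 0, with Il7r the exception and a median of -0.91.

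The calls of Trdc and Il7r held without sub-cluster 2 (adjusted p = 0.0193 and 0.0400, edgeR) but not without sub-clusters 1, 2, 5 and 9. Without sub-clusters 1, 2, 5 and 9, of which aN1aN2 had 3 cells, Trdc had a log2 fold change of 0.83 (adjusted p = 0.218, edgeR) and Il7r one of 0.91 (adjusted p = 0.135, edgeR), although the aN1aN2 samples still lay above the RW samples for both. Txnip and Rps18 also lost their calls in that fit, with log2 fold changes of 1.36 (adjusted p = 0.0863, edgeR) and -0.57 (adjusted p = 0.135, edgeR). Txnip then stood at 239, 200.2 and 226 CPM in RW and at 513, 639 and 601 in aN1aN2, still without overlap. Sla had too few counts to be tested there. Within the gamma delta T-like sub-cluster Trdc stood at 2726, 3503 and 3628 CPM in RW, 3194, 5261 and 3405 in aJ1aJ2 and 7819, 3388 and 5216 in aN1aN2, on 1 to 14 cells, and the groups overlapped. The RW and aN1aN2 levels of Il7r and Txnip overlapped there too. Those of Cd3e, which was not called over all T1 cells, did not overlap there, at 839, 802 and 1119 in RW and 2460, 1540 and 1758 in aN1aN2. Leaving out 1 sample at a time also ended the Trdc call without RW 2, RW 3, aN1aN2 1 or aN1aN2 2 (adjusted p up to 0.178, edgeR), and the Il7r call in every case except without RW 1 (up to 0.182).

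Other genes that rose were Hbb-bs, a haemoglobin chain (log2 2.43 ± 0.48), Sla, an adaptor that dampens T cell receptor signalling (2.03 ± 0.42), Txnip, a thioredoxin-binding protein of glucose sensing (1.75 ± 0.33), and Ppp1cc, a phosphatase subunit (1.71 ± 0.31), with adjusted p from 0.0231 to 0.0447 (edgeR). Hbb-bs stood at 223, 262 and 32.6 CPM in RW and at 721, 1314 and 1054 in aN1aN2. The 5 genes of the erythroid list summed to between 97.7 and 451 CPM in RW and between 1082 and 1811 in aN1aN2, with Alas2 at 0, and cells under the erythroid labels made up 10.2% to 25.0% of RW samples and 29.0% to 34.8% of aN1aN2 samples. Their part in the Hbb-bs value was not tested. Hbb-bs levels of RW and aN1aN2 overlapped in EC1 cells (2143 to 11410 CPM against 1383 to 3959) and in cells labelled Th1. In cells labelled F they were higher in aN1aN2, without overlap. Txnip stood at 232, 120 and 174 CPM in RW and at 556, 639 and 617 in aN1aN2. It was also higher in aN1aN2 in EC1 cells, at 2408 to 2627 against 593 to 687 in RW, and in cells labelled Th1 and F. Ppp1cc was higher in aN1aN2 without overlap in EC1 and Th1 cells, and the groups overlapped in F cells. Sla was called in none of the fits that left out 1 sample, and Txnip only without RW 1 (adjusted p up to 0.314 and 0.152, edgeR). Hbb-bs lost its call without RW 2 or any aN1aN2 sample, and Ppp1cc without RW 2, RW 3, aN1aN2 1 or aN1aN2 2 (up to 0.116 and 0.196).

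Mitochondrial ribosomal RNAs were among the 4 genes that fell. The mitochondrial ribosomal RNA mt-Rnr2 stood at 17300, 12360 and 7541 CPM in RW and at 4477, 2912 and 2363 in aN1aN2 (log2 -2.01 ± 0.28, adjusted p = 0.00557, edgeR), and this call held in all 6 fits that left out 1 sample. Its partner mt-Rnr1 (log2 -1.73 ± 0.25) kept the call in 5 of 6, all but the fit without aN1aN2 1 (adjusted p = 0.0518). AY036118 fell by 4.05 on the log2 scale and kept its call in 3 of 6, losing it without RW 2, aN1aN2 1 or aN1aN2 2. All 3 were also lower in aN1aN2 than in RW in EC1, Th1 and F cells, without overlap of the ranges. The ribosomal protein gene Rps18 fell by 0.65 and kept its call in 1 of 6 (without aN1aN2 3). In EC1, Th1 and F cells its level was instead higher in aN1aN2 than in RW, without overlap of the ranges. The margin was narrow in EC1 (1480 to 1690 CPM against 1304 to 1466) and F (1611 to 2204 against 1247 to 1593). Lmo4, at 292, 125 and 141 in RW and 901, 959 and 331 in aN1aN2, and Cd3e, at 575, 647 and 445 against 1277, 1172 and 963, did not pass (adjusted p = 0.0505 and 0.0652, edgeR).

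**Figure D5:**
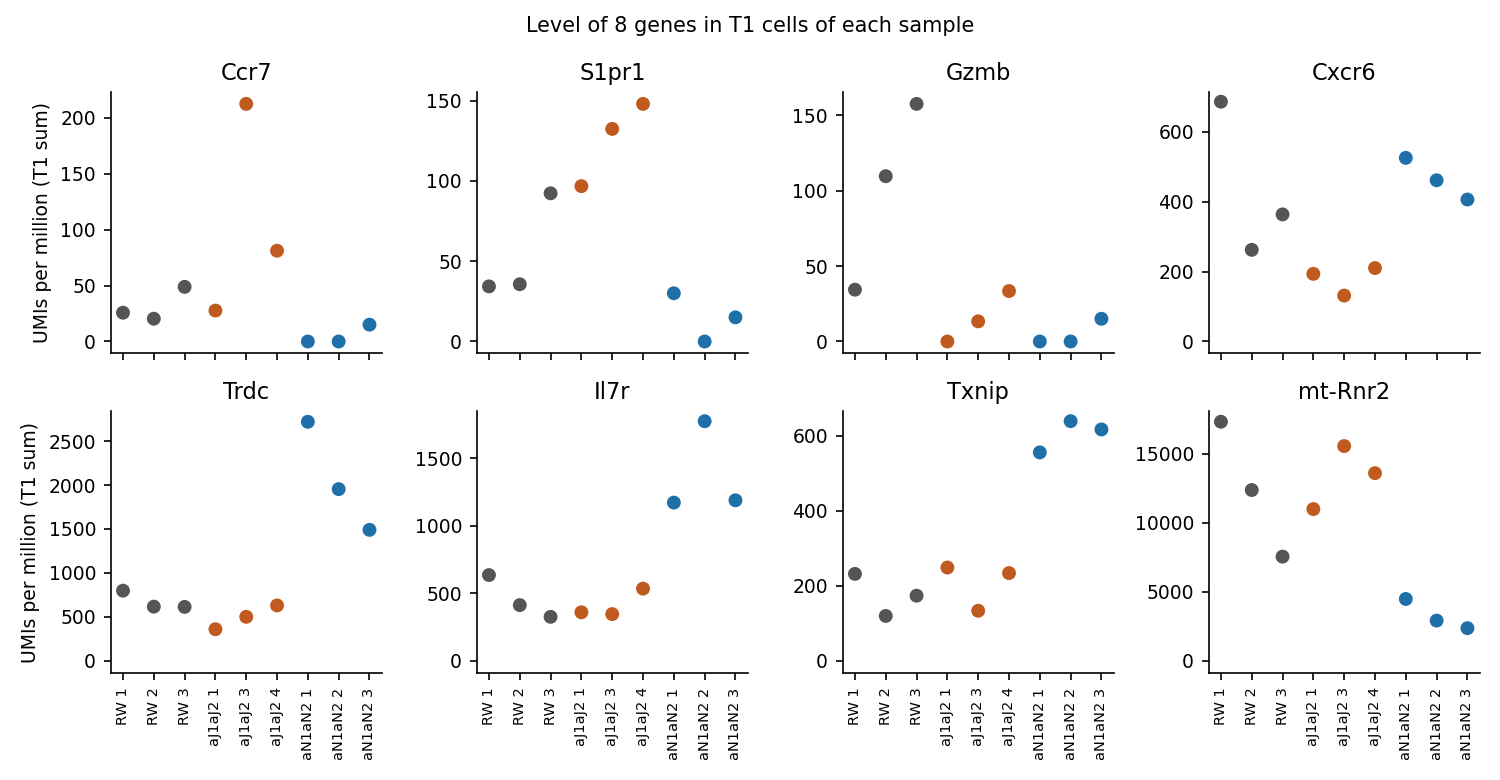
CPM over the summed T1 cells of each sample (y axis, linear, one scale per gene) for 8 genes; each point is 1 sample, grey RW, orange aJ1aJ2, blue aN1aN2. The aN1aN2 samples are above all others for Trdc (1490 to 2719) and Il7r and below all others for mt-Rnr2, and Ccr7 is highest in aJ1aJ2 3 at 212.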

How the data were processed

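The authors deposited raw UMI counts per gene and cell, with a cell label, from 10x 3' libraries of 9 pools; Cell Ranger and GRCm38 are named in the submitters' processing notes, and versions, cell calling and the making of the labels are not given in the sources used here. The table holds 10186 cells with 500 UMIs or more. A shifted column in 2619 annotation lines was repaired. Gene symbols matched 52403 of 52636 identifiers, and coordinates are from GENCODE on GRCm38. Counts were summed over T1 cells per sample, scaled to 1000000 UMIs for levels, and tested with edgeR 4.0.16 (filterByExpr, TMM, 1 mean per group, quasi-likelihood, Benjamini-Hochberg over all genes); DESeq2 1.42.0 was an alternative. The edgeR step was tested on simulated counts with large changes and a single fixed spread, which does not show its power for smaller changes in these data. T1 cells were clustered with scanpy 1.11.5 (Leiden, resolution 0.8). Named genes were those called, filled to 10 per direction with the smallest unadjusted p under 0.05 among genes whose groups did not overlap, plus fixed lists and the 20 genes most specific to T1. The cells and lists were chosen with earlier results of these data known. Pools are the replicates; p-values measure the spread between pools, and binomial intervals cover counting error only. Replicate counts differed beyond sampling noise in every pair within a group.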

Additional observations from a re-analysis of the deposited data

How the results depend on the processing

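For aJ1aJ2 against RW, all alternatives called 0 genes except no filter on low counts (17) and leaving out 1 sample at a time (0 to 1; the 1 was Dntt without aJ1aJ2 4, log2 4.89, adjusted p = 0.0148, edgeR). The 20 named genes kept their direction wherever they could be fitted. With no filter 5 of them passed the threshold, and the 17 genes called there included one with 12562 UMIs. The 10 calls of aN1aN2 against RW became 32 with DESeq2. They became 61 with no filter (9 higher, 52 lower) and 72 with at least 10 counts (16 higher, 56 lower). They became 4 with those 2 groups alone, 4 with equal cell numbers, 19 without sub-cluster 2 and 6 without sub-clusters 1, 2, 5 and 9. With 1 sample left out they numbered 1 to 15. Each aN1aN2 sample had fewer than 20 T1 cells, which limits the counts on that side, and the cause of these shifts was not tested. With a replicate block over numbers 1 and 2 the count was 54, against 16 for the same 4 samples unblocked. The share difference with that block was -3.004 points. Deviations of same-numbered samples had r = -0.02 over 1786 genes. That is a single correlation from 2 pairs with few aN1aN2 cells, so it cannot decide whether the numbers pair the samples. No paired analysis was possible for aJ1aJ2, which shares fewer than 2 title numbers with RW. The share difference of aJ1aJ2 reversed to -0.14 without the Eryth1, Eryth2, T2, Th2 and Th3 labels in the denominator, to -0.78 between the 2 samples of the smaller title series, to -0.15 without RW 2 and aJ1aJ2 3, and to -0.48 without sub-clusters 1, 2, 5 and 9, and ranged from -1.46 (without aJ1aJ2 3) to 2.25 with 1 sample left out. That of aN1aN2 ranged from -2.93 to -0.91 with 1 sample left out, was -4.37 without those 5 labels and -0.53 without sub-clusters 1, 2, 5 and 9, and reversed to 26.9 over T1 and M cells alone. The title series as a covariate was not run with at least 20 cells, where RW 3 is the only sample of its series. With at least 10 cells it called 0. Sub-clusters 4, 6, 7 and 8 kept all their cells together at resolutions 0.5 and 1.2, whereas 1, 5 and 9 merged at 0.5, and at 1.2 the largest piece held 53 of the 93 cells of sub-cluster 1, 32 of 62 of sub-cluster 3 and 36 of 54 of sub-cluster 5.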

Other observations

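Cytokine transcripts in T1 ranged from common to rare. Ltb, the lymphotoxin beta chain, was found in 245 of 409 cells and Tgfb1 in 155. Il17a was found in 9 cells and Ifng in 13, while Il13 had 20 UMIs in 2 cells, 15 of them in 1 RW 3 cell, and Areg was found in 2 cells. Xcl1, a chemokine that attracts cross-presenting dendritic cells, was found in 58 cells, among them 90.5% of the NK-like sub-cluster and 53.2% of sub-cluster 3. Csf2, a growth factor of myeloid cells, was found in 25.8% of sub-cluster 6. Calca, the gene of calcitonin and CGRP, had 371 UMIs in T1, of which 178 were in 1 aN1aN2 1 cell of sub-cluster 6.

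Il2ra, the high-affinity interleukin-2 receptor chain, was detected in 54.2% of the gamma delta T-like cells, 54.8% of sub-cluster 6 and 85.7% of sub-cluster 9, against 1.08% of the naive T-like cells. Kit, the stem cell factor receptor, was detected in 45.2% of sub-cluster 6, and Klrg1 in 32.3%. Among the thymocyte genes, Dntt was found in 15 T1 cells, 12 of them in aJ1aJ2 3 and 3 in RW 2, and Rag1 in 5, all in aJ1aJ2 3. Of the same list, Ccr9 was highest in RW 2 (183 CPM) and aJ1aJ2 3 (155 CPM), Arpp21 in aJ1aJ2 3 (36.7 CPM) and RW 3 (32.6 CPM), and Mns1 in RW 3 (54.3 CPM) and RW 1 (42.9 CPM).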
